A study of Mus musculus with 6 samples.

Results

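The genes described here belong to the families of enzymes that add methyl groups to lysines of histones and take them off. A few members, such as Kmt2e and some Setd genes, are family relatives whose products are not established histone methyltransferases. All were chosen by name: every protein-coding gene of the RefSeq table of the mouse assembly GRCm38.p6 whose symbol begins with Kmt, Kdm or Setd and a number or letter, together with Ezh1, Ezh2, Dot1l, Nsd1, Nsd2 and Nsd3. The rule gave 42 of 21900 protein-coding genes, 24 of them methyltransferase or SET domain genes and 18 demethylase genes. The assay was ATAC-seq, which uses the Tn5 transposase to cut and tag open DNA, and the results rest on 1 list of peaks per condition. Overlapping peaks, by 1 bp or more, were joined across the 3 lists into 81315 regions, and 246 of these lay in the bodies of the 42 genes or within 10 kb on either side. The choice used no measured value. It did use the 10 kb limit: 11 regions lay between 8 and 10 kb from a member, 6 of them with a peak in all 3 lists, and 17 lay between 10 and 12 kb away, 8 of them with a peak in all 3 lists.

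All cells were CD4 T cells of C57BL/6 mice. The naive cells were untreated. The Th17 cells were naive CD4 T cells cultured for 48 h or 72 h with 0.25 µg/mL anti-CD3ε and 1 µg/mL anti-CD28, which engage the T cell receptor and its costimulator, and with 0.1 ng/mL TGF-β and 20 ng/mL IL-6. Each condition had 2 libraries of 10000 cells, but only 1 list per condition was analysed here, so no difference between conditions has a replicate check and no p-value is given. Intervals on shares are exact Clopper-Pearson 95% intervals and cover counting error only. A region is called gained when the later list has a peak in it and the earlier list has none, and lost in the opposite case; a missing peak is a peak that was not called and does not show closed chromatin. A bulk list also cannot tell fewer cells with an open site from less opening per cell.

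Histone lysine methylation marks the state of chromatin. Methylation of H3 lysine 4 goes with promoters and enhancers in use and that of lysine 36 and lysine 79 with transcribed gene bodies, while methylation of H3 lysine 27 by Polycomb and of H3 lysine 9 goes with silent genes. In T cells these enzymes help to hold lineage genes silent or keep them usable, and EZH2 and the H3K27 demethylases are well studied in helper T cell differentiation.

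The lists differed in size, and this touches every comparison below. There were 53259 peaks in the naive list (median 273 bp), 40624 in the 48 h list (234 bp) and 53926 in the 72 h list (239 bp). The deposited lists of 48 h and 72 h give each peak a score that the authors made, on a scale they do not state. It starts at 30 in both lists and has a median of 69 at 48 h and 76 at 72 h. It is used here only to rank peaks within a list, and the naive list has none. The labelled cell types were checked on marker genes. Of the Th17 markers, the cytokine gene Il17a had 0 regions in naive cells, 3 at 48 h and 5 at 72 h, Il17f 0, 1 and 3 and Ccr6 1, 3 and 6, and the receptor gene Il23r went from 9 to 5 and 7. The naive T cell markers Lef1, Tcf7 and Ccr7 had 27, 9 and 15, 9, 4 and 4, and 7, 3 and 3. Of the markers of other cells, Ms4a1 of B cells, Lyz2, Csf1r and Adgre1 of myeloid cells and Ncr1 of NK cells had no region in any list. The 4 B cell markers together had 8, 7 and 9 regions, the 4 myeloid markers 7, 1 and 1, all at Itgam, and the 4 CD8 and NK markers 6, 5 and 4. The part of such cells in the results was not tested.

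The promoters of the members give the reference point for the peak lists. The RefSeq promoter table (GRCm38.p6) holds 41 windows, from 250 bases before to 50 bases after an annotated start, for 31 of the 42 members. It has none for Kdm2a, Kdm3b, Kdm4b, Kdm5a, Kdm6b, Kmt2b, Kmt2e, Nsd1, Nsd2, Nsd3 and Setd1b. The 250 bases before the start are printed 5′ to 3′ on the gene's own strand for 7 windows: the H3K27 methyltransferase pair Ezh1 and Ezh2, the 2 windows whose region was in 1 list only (a window of Kmt5a and a window of Kmt5b), and 3 of the members with the widest promoter regions (Kdm6a, Kdm4c and Kmt2c). Capitals mark the matches to the motifs named after them.
Ezh2, chr6:47595031-47595280, minus strand: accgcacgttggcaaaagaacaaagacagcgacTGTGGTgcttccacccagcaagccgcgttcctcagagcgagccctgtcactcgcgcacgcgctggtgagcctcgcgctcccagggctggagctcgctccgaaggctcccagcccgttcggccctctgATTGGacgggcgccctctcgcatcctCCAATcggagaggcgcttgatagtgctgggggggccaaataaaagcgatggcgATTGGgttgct
Ezh1, chr11:101226464-101226713, minus strand: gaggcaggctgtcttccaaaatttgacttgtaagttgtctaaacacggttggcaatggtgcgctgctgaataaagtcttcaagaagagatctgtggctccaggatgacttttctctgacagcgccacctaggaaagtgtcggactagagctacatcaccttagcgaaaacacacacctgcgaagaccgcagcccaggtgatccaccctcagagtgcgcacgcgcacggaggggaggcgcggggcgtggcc
Kmt5a, chr5:124446454-124446703, plus strand: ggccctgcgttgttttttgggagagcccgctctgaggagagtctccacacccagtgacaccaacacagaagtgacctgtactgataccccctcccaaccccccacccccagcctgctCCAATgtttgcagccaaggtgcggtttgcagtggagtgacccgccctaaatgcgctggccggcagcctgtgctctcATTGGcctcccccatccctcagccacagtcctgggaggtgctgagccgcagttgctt
Kmt5b, chr19:3767171-3767420, plus strand: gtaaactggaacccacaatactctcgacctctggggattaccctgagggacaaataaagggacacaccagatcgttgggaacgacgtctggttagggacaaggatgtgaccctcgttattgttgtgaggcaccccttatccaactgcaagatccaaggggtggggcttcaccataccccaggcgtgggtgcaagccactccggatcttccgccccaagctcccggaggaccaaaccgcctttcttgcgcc
Kdm6a, chrX:18162325-18162574, plus strand: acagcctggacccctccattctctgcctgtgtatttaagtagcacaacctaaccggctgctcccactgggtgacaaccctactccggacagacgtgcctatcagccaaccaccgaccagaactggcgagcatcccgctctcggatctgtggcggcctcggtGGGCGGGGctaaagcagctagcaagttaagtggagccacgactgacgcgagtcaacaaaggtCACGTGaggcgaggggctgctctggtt
Kdm4c, chr4:74251629-74251878, plus strand: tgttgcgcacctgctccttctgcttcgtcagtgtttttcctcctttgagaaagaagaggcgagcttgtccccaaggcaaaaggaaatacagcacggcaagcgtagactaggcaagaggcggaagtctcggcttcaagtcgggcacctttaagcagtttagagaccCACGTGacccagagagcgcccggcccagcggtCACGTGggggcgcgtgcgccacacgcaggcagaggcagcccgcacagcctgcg
Kmt2c, chr5:25498784-25499033, minus strand: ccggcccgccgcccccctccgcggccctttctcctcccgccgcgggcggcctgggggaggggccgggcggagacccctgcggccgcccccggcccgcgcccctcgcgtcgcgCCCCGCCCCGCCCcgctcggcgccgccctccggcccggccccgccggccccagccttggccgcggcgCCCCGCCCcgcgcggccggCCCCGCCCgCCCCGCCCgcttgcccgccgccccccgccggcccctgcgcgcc

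In these sequences Ezh2 carries 1 RUNX match and 3 CCAAT boxes, and Ezh1 carries no match to the 9 motifs searched. The Kmt5a window has 2 CCAAT boxes and the Kmt5b window has none of the motifs. Kdm6a has 1 GC box and 1 E-box, Kdm4c has 2 E-boxes, and Kmt2c has 5 GC boxes, some of which overlap each other. The motifs were searched on both strands of the whole 300 base windows. A match is a string of letters and not a site that was shown to be bound.

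Over all 41 member windows the GC box GGGCGGGG was in 39.0%, against 23.6% of all 21263 windows of the table, and the ETS core CCGGAAG was in 17.1% against 11.6%. The CCAAT box was in 43.9% against 38.2%, the AP-1 site TGANTCA in 9.76% against 6.99% and the YY1 core AAGATGGCG in 4.88% against 1.83%. The RUNX motif TGTGGT was in 12.2% against 15.0% and the E-box CACGTG in 4.88% against 7.84%. The NRF1 core CGCATGCG and the CRE TGACGTCA were in 0 member windows, against 2.52% and 2.23% of all windows. Most member windows lay under a region of all 3 lists, and of the windows of any gene with such a region 37.5% held the GC box, 21.5% the ETS core, 39.3% the CCAAT box, 3.82% the AP-1 site, 3.69% the YY1 core, 11.3% the RUNX motif and 11% the E-box. The GC boxes belonged to 13 members, among them Kmt2a, Kmt2c, Setd2, Setdb1, Kdm2b and Kdm6a, and the AP-1 sites to Kdm3a, Kdm4a and Kdm5c. The median GC content of member windows was 62.7% and the median ratio of observed to expected CpG was 0.882. All windows of the table had 56.3% and 0.567, and those that a region in all 3 lists overlapped had 62.3% and 0.811.

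Nearly every member with a promoter window kept a peak there from the naive cell to the 72 h culture. Of 31 members, 28 had a window overlapped by a region with a peak in all 3 lists, against 48.7% of the 17492 genes in the promoter table. The other 3, Kmt2d, Setd5 and Kdm5d, had no region over a window. Kdm5d, the H3K4 demethylase gene of the Y chromosome, had no region at all within 10 kb in any list and is the only member without one. The windows of Kmt2d and Setd5 lay inside the annotated gene bodies. At Setd5 a region of all 3 lists covered the lower end of the gene (chr6:113075990-113077712), with peaks of 1580 bp in naive cells, 1652 bp at 48 h and 1658 bp at 72 h. At Kmt2d a region of all 3 lists lay just upstream of the window (chr15:98871830-98872419), with peaks of 457, 511 and 396 bp. Of the 11 members without a window, 9 had a region of all 3 lists whose nearer edge lay within 1 kb of a gene end. Kdm6b and Setd1b had the edge of their nearest such regions 1095 bp and 2990 bp from a gene end.

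The promoter peaks ranged widely in width between genes. Widths are summed over a list's peaks in the region at the window, and at Kdm5c over separate regions at its window. Kdm6a, which encodes the H3K27 demethylase UTX, had the widest peak in naive cells, at 2078 bp, with 1299 bp at 48 h and 1801 bp at 72 h. Ezh2, the main catalytic subunit of Polycomb repressive complex 2, had 1438, 1222 and 1472 bp, and Ezh1, its paralog, 535, 451 and 451 bp. At the low end Setdb1, an H3K9 methyltransferase gene, had 236, 187 and 271 bp. Over the 28 members the width ran from 236 to 2078 bp with a median of 863.5 bp in naive cells, from 187 to 1299 bp with a median of 813 bp at 48 h, and from 233 to 1801 bp with a median of 862 bp at 72 h. The peak was narrower at 48 h than in naive cells at 22 of the 28 and wider at 72 h than at 48 h at 19. The largest fall from naive cells to 48 h was at Kdm4c, an H3K9 demethylase gene, whose peak measured 1725 bp in naive cells, 854 bp at 48 h and 1187 bp at 72 h. The score of the promoter peak had a median of 158.5 at 48 h, within a range of 34 to 360, and 204 at 72 h, within a range of 64 to 454. Setd3 had the highest at 48 h (360, above 99.9% of that list's peaks) and Kmt5a the highest at 72 h (454, above 99.8%).

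**Figure D1:**
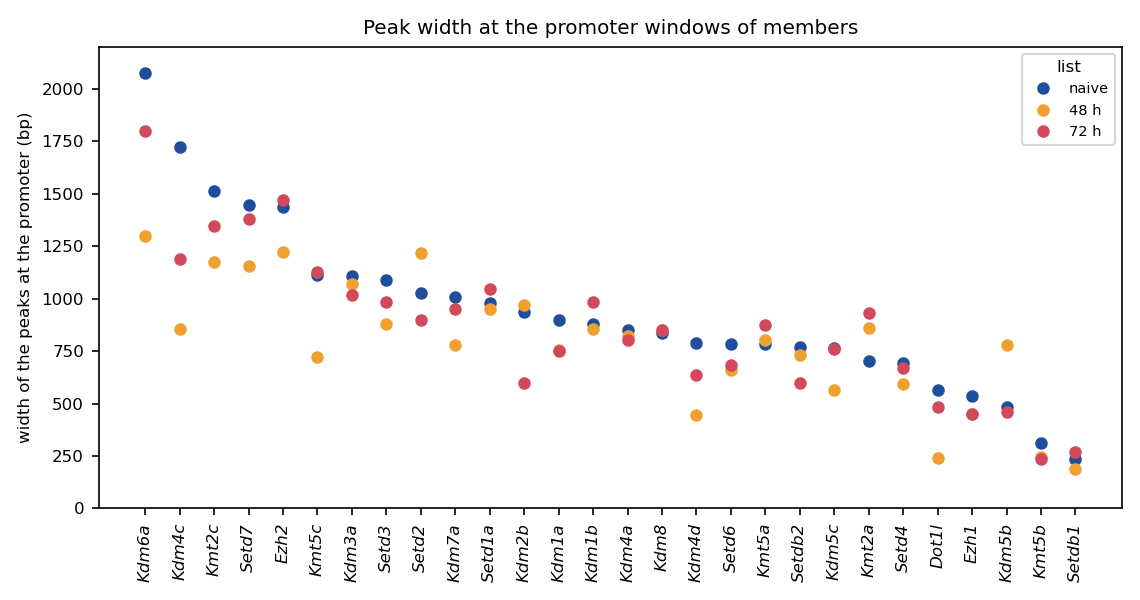
Width in bp (vertical axis) of the peaks at the promoter window of the 28 members with a promoter region in all 3 lists, ordered by the naive width, with 1 point per list (naive blue, 48 h orange, 72 h red). The points run from 2078 bp at Kdm6a to 187 bp at Setdb1, and at 22 members the 48 h point lies below the naive point. There are no error bars because each condition has 1 list.

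A pair of alternative windows differed between the lists. The third annotated window of Kmt5a, the gene of the H4K20 monomethyltransferase SET8, was overlapped by a 179 bp region at 72 h only (chr5:124446649-124446827), with the score of 30 that is the lowest in that list. Its other windows lay under regions of all 3 lists. The first window of Kmt5b, which encodes an H4K20 methyltransferase, was overlapped by a 100 bp region at 48 h only (chr19:3767335-3767434), with a score of 50, while its downstream window had peaks of 312, 247 and 233 bp in naive, 48 h and 72 h cells.

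Of the 246 regions, 100 (40.7%, 34.5 to 47.1%) had a peak in all 3 lists, against 25.6% of all regions. A further 58 (23.6%) were in the naive list only, 31 (12.6%) in both Th17 lists and absent from naive cells, and 19 (7.72%) in the 72 h list alone. The naive list shared 17 regions with 72 h alone and 8 with 48 h alone, and 13 were in the 48 h list alone. Among all regions the share seen at 72 h only was 18.3% and that seen in naive cells only was 28.8%. The share in both Th17 lists and absent from naive cells was 13.1% of all regions, close to that of the members. Regions of naive cells and 72 h alone made up 6.91% at members and 6.86% of all regions. Those of naive cells and 48 h alone made up 3.25% and 2.57%, and those of 48 h alone 5.28% and 4.73%. Member regions of all 3 lists had a median width of 597.5 bp, naive-only regions 172 bp and 72 h-only regions 186 bp. No region was shared by a pair of members, but 116 of the 246 (47.2%) also lay within 10 kb of another protein-coding gene.

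Between naive cells and 48 h, 75 of 183 member regions were lost (41.0%, 33.8 to 48.5%), against 55.9% of all regions, and 44 of 152 were gained (28.9%, 21.9 to 36.8%), against 38.8%. Counted by gene, 26 of the 41 members with a region lost more regions than they gained (49.1% of all genes with a region did). Another 10 gained more than they lost (19.5% of all genes). The other 5 were balanced, as were 5226 of all 16632 genes with a region. Members had a median of 5 regions, against 4 at all genes with a region. The counts by gene are not matched for this number. Between naive cells and 72 h, 66 of 183 were lost (36.1%, 29.1 to 43.5%; 49.2% of all regions) and 50 of 167 gained (29.9%, 23.1 to 37.5%; 49.2% of all regions). Here 15 members lost more and 13 gained more, against 36.6% and 33.9% of all genes. Another 13 were balanced, as were 4898 of all 16632 genes. These comparisons share the naive list and are not independent of each other.

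From 48 h to 72 h, 36 of 167 member regions were gained (21.6%, 15.6 to 28.6%), against 39.4% of all regions, and 21 of 152 were lost (13.8%, 8.76 to 20.3%), close to the 15.9% of all regions. By gene, 20 members gained more than they lost and 8 lost more, against 48.8% and 11.1% of all genes. Another 13 were balanced, as were 6671 of all 16632 genes. At any protein-coding gene, 45.9% of naive regions were lost by 72 h and 45.2% of 72 h regions were gained. The methyltransferase and SET genes lost 34.6% (25.6 to 44.4%) and gained 33.3% (24.4 to 43.2%) by 72 h, and the demethylase genes lost 38.2% (27.2 to 50%) and gained 24.2% (14.2 to 36.7%). The intervals of these groups overlap.

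**Figure D2:**
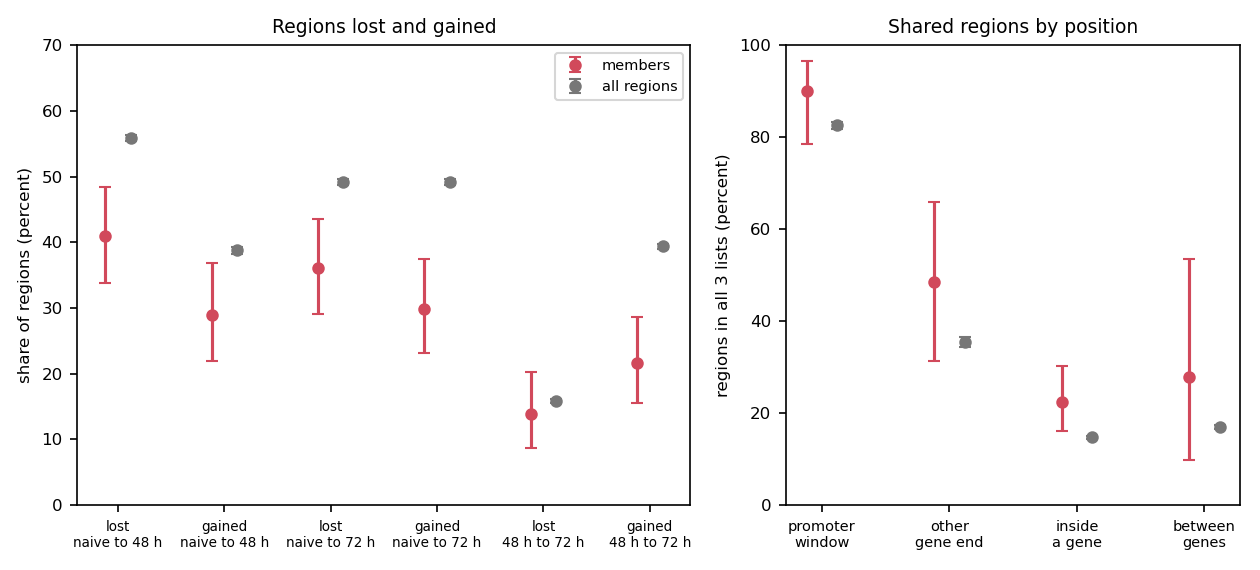
Left, percent of regions lost (of the earlier list) or gained (of the later list) for each pair of conditions, at the members (red) and over all regions (grey). Right, percent of regions with a peak in all 3 lists by position. Bars are exact 95% binomial intervals, which cover counting error only. The member points lie under the grey points on the left, by the least for loss from 48 h to 72 h (13.8% against 15.9%). On the right they lie above the grey points, but the member interval holds the grey point at every position except inside a gene.

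Away from promoter windows the members had 195 regions, of which 27.7% (21.5 to 34.5%) were in all 3 lists, against 17.9% of all such regions. Of the naive ones 47.4% (38.8 to 56.2%) were lost by 72 h, against 58.2%, and of the 72 h ones 40.3% (31.4 to 49.7%) were gained, against 57.8%. Of the member regions 20.7% overlapped a promoter window of a protein-coding gene, against 11.9% of all regions. Of those 51 regions, 46 were in all 3 lists (90.2%, 78.6 to 96.7%), against 82.6% of all promoter regions. Regions whose middle lay inside a gene made up 142 of the 246 (57.7%), and 32 of them were in all 3 lists (22.5%, 16.0 to 30.3%), against 14.7%. Inside genes 52.6% of naive member regions were lost by 72 h (42.2 to 62.8%) and 43.9% of 72 h regions gained (33.0 to 55.3%), against 62.5% and 62.5%. Regions at another gene end were in all 3 lists in 48.6% of 35 cases (31.4 to 66.0%), against 35.4% of all such regions. Those between genes were in 27.8% of 18 cases (9.69 to 53.5%), against 17.0%. At these positions and at promoter windows the member interval holds the share of all regions.

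The constant regions narrowed and then widened again, as constant regions did genome-wide. The width of a region in a list is the summed width of that list's peaks in it. For the 100 member regions of all 3 lists its median was 535 bp in naive cells, 375.5 bp at 48 h and 495 bp at 72 h. The median difference was -124.5 bp at 48 h against naive (95% interval of the median -169 to -83 bp), with 81 regions narrower, and all 20812 constant regions gave -123 bp. At 72 h against naive it was -49 bp (-81 to -2 bp), with 62 narrower, and -62 bp over all constant regions. From 48 h to 72 h the median rose by 70.5 bp (47 to 131 bp), with 72 regions wider and 27 narrower, and by 59 bp over all constant regions.

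The number of regions per member ran from 0 to 17 with a median of 5, and 4 members had more than 10: Kdm2b with 17, Nsd3 with 14, Setd1b with 12 and Dot1l with 11. Per length of gene the regions were densest at Setd1b, with 2.58 per 10 kb of gene body and flanks, and the median of members with a region was 0.753.

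**Figure D3:**
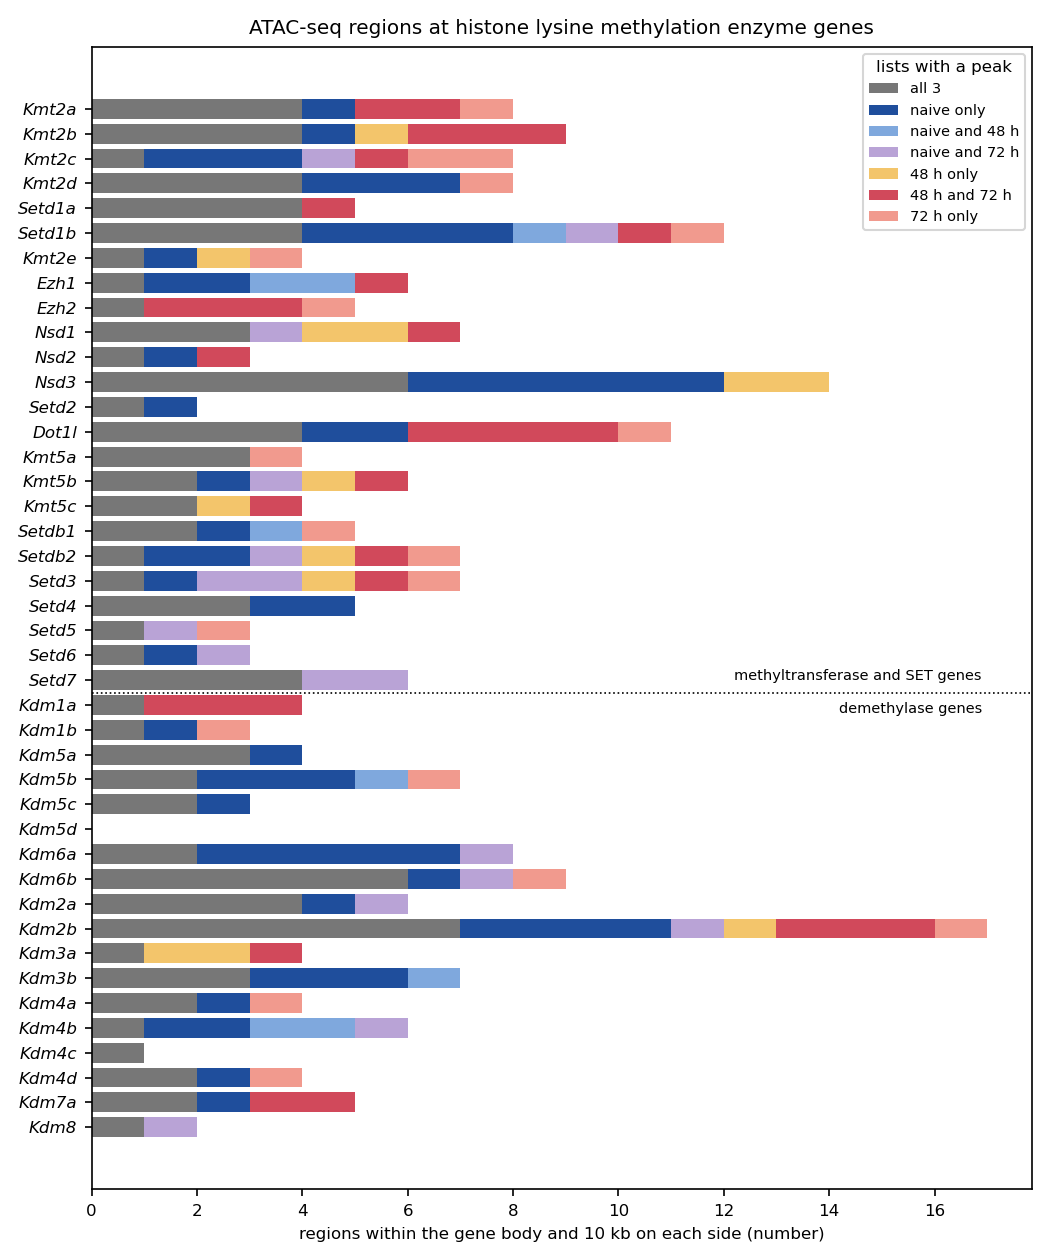
Number of regions (horizontal axis) at each of the 42 members, coloured by which of the 3 lists had a peak, with methyltransferase and SET genes above the dotted line and demethylase genes below. Ezh2 and Kdm1a show regions of all 3 lists and new regions but no naive-only region, and Kdm6a and Nsd3 show 5 and 6 naive-only regions.

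The H3K27 enzymes moved in different ways. Ezh2 had 1 region in naive cells, 4 at 48 h and 5 at 72 h, and lost none. The single naive region was its promoter, and the gained regions lay 14.1, 35.0, 62.4 and 67.1 kb downstream of the start. The region at 62.4 kb (chr6:47532519-47532827), near the far end of the gene body, had the highest 72 h score of any new member region, 273, above 94.9% of the 72 h peaks, and scored 173 at 48 h, where new regions of Kdm7a, Dot1l and Kmt2a scored higher. It and the region at 67.1 kb also lie within 10 kb of Cul1, a ubiquitin ligase gene. The region at 14.1 kb (chr6:47580774-47581030) had scores of 71 and 120, and the region at 35.0 kb, seen at 72 h only, a score of 70.

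Ezh1, whose product takes the place of EZH2 in many non-dividing cells, had 5 regions in naive cells, 4 at 48 h and 2 at 72 h. Of its 4 naive regions beyond the promoter, those 7.63 and 30 kb into the gene had no peak at 48 h, and those 14.3 and 25.2 kb in had a peak at 48 h and none at 72 h. Its 1 gained region (chr11:101194575-101195186), 31.6 kb from the start and also near Cntnap1, had scores of 145 and 141. Between naive cells and 72 h Ezh2 thus gained 4 and lost 0 regions, and Ezh1 gained 1 and lost 4.

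Kdm6a had 8 regions in naive cells, 2 at 48 h and 3 at 72 h and gained none against naive cells. The promoter and a region 92.3 kb downstream were in all 3 lists, and the peak of the latter measured 673 bp in naive cells, 171 bp at 48 h and 242 bp at 72 h. The 5 naive-only regions were 111 to 425 bp wide, and the widest (chrX:18177661-18178085) lay 15.3 kb into the gene. No other protein-coding gene lay within 10 kb of these regions. Kdm6b, the gene of the JMJD3 demethylase, had 8, 6 and 8 regions, 6 of its 9 in all 3 lists, and 7 of the 9 lay near a neighbour such as Naa38 or Dnah2. Its regions lost by 48 h were 100 bp and 212 bp wide in naive cells.

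**Figure D4:**
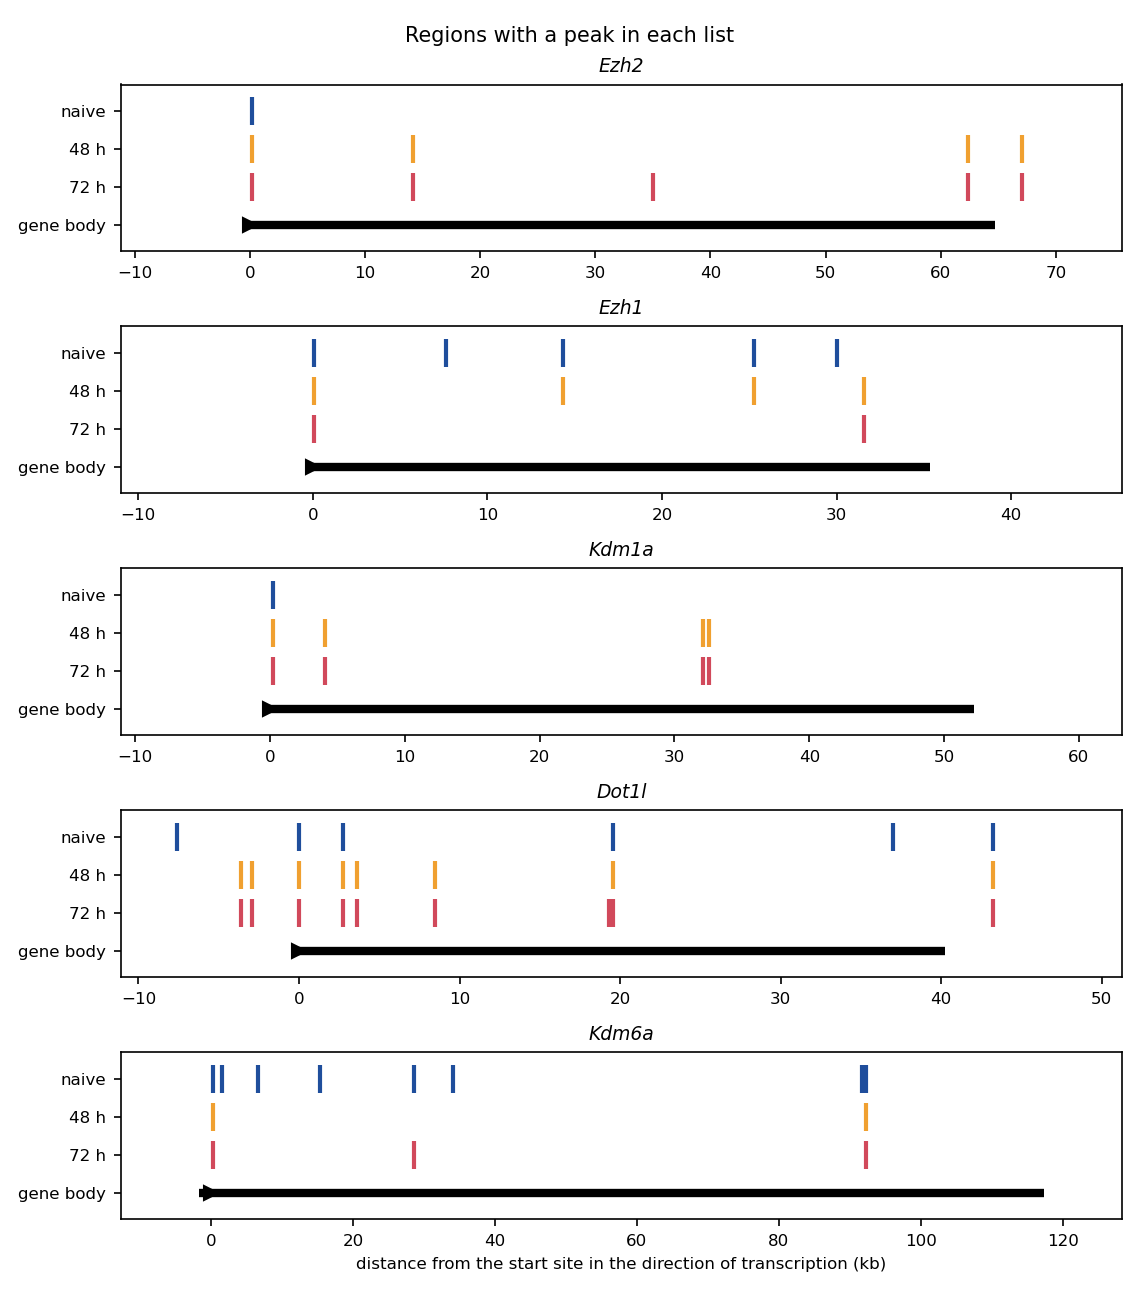
Regions with a peak in each list (naive blue, 48 h orange, 72 h red) at Ezh2, Ezh1, Kdm1a, Dot1l and Kdm6a, by distance in kb from the annotated start in the direction of transcription. The black bar is the gene body and the triangle marks the start; tick widths are fixed and do not show peak width. Ezh2 has 1 naive region and 5 at 72 h, and Kdm6a has 8 naive regions and 3 at 72 h.

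Among the H3K4 methyltransferase genes, gains and losses were mixed: by 72 h the 6 genes together gained 13 regions and lost 13. That was 36.1% of their 72 h regions and 36.1% of their naive regions, against 49.2% of all regions in both cases. Kmt2a, the MLL1 gene, had 5 regions in naive cells, 6 at 48 h and 7 at 72 h. Its gained regions included chr9:44868681-44869072, 12.4 kb into the gene with scores of 189 and 173, and chr9:44873753-44874116, 7.35 kb in with scores of 80 and 163. Both lay inside Kmt2a with no other protein-coding gene within 10 kb. Kmt2b had 5, 8 and 7 regions, but all 9 of its regions also lay near other genes, and the gained regions of both Th17 lists lay beside Zbtb32 and Upk1a. Its own upper gene end was covered by a peak of 1417 bp in naive cells, 349 bp at 48 h and 430 bp at 72 h (chr7:30588088-30589504).

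Kmt2c, an enhancer H3K4 methyltransferase gene, had 5, 2 and 5 regions. Of its 4 regions lost by 48 h, 1 had a peak again at 72 h, and 2 regions were seen at 72 h only. The region chr5:25367252-25367446, 131 kb from the start, had a 72 h score of 207, above 88.0% of that list, and no peak at 48 h. Kmt2d, its close relative, had 7, 4 and 5 regions, and its 3 naive-only regions were 118 to 176 bp wide. Setd1b had 10, 6 and 7 regions, of which 11 of 12 were near another gene, mostly Rhof. Setd1a had 4, 5 and 5, with 1 region gained and none lost. Kmt2e, an MLL relative without known methyltransferase activity, had 2, 2 and 2, of which 1, at the lower gene end, was in all 3 lists (1647, 1616 and 1999 bp).

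Of the H3K36 methyltransferase genes Nsd3 had the most regions and lost the most: it had 12 in naive cells, 8 at 48 h and 6 at 72 h. By 48 h and by 72 h alike, Nsd3 had lost 6 of its 12 naive regions (interval 21.1 to 78.9%). That interval holds the loss over all regions, 55.9% by 48 h and 49.2% by 72 h. Its 6 naive-only regions included the widest naive-only region of any member, 556 bp (chr8:25625185-25625740), and another of 400 bp (chr8:25709215-25709614), both inside the gene. A pair of narrow regions was seen at 48 h only, with scores of 42 and 37, and no region was gained by 72 h. Nsd1 had 4, 6 and 5 regions, with 2 at 48 h only whose scores were 40 and 37. Nsd2 had 2, 2 and 2, with 1 naive-only region of 132 bp and 1 new region inside the gene with scores of 35 and 53. Setd2, the gene of the enzyme that trimethylates H3K36 during elongation, had 2, 1 and 1. Its promoter peak measured 1026, 1217 and 897 bp, and its other region, in naive cells only, was 168 bp wide and lay at the promoter window of a neighbouring gene.

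Dot1l, the H3K79 methyltransferase gene, had 6 regions in naive cells, 8 at 48 h and 9 at 72 h, with 5 gained and 2 lost by 72 h. The gained region chr10:80763451-80763904, 8.47 kb into the gene, had scores of 98 and 224, the latter above 90.3% of the 72 h peaks. A region at -3.61 kb, upstream of the start (chr10:80751276-80751904) had the highest 48 h score of the gained Dot1l regions, 195, with 136 at 72 h; it also lies within 10 kb of Ap3d1. The lost regions were 132 and 100 bp wide.

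The H4K20 and H3K9 methyltransferase genes had between 2 and 4 regions each in every list. Kmt5a had 3, 3 and 4 regions, Kmt5b 4, 4 and 4, and Kmt5c 2, 4 and 3. Setdb1 had 4, 3 and 3 and Setdb2 4, 3 and 4. Of the 3 H4K20 genes' 9 naive regions 1 was lost by 72 h (interval 0.281 to 48.2%), and of the 8 at the H3K9 genes 4 were (15.7 to 84.3%). These intervals overlap, and the loss over all regions was 49.2%. All 5 other SET domain genes lost more regions than they gained by 48 h (49.1% of all genes with a region did). In all, 10 of their 20 naive regions were lost by 48 h, against 55.9% of all regions. Of their 12 regions at 48 h, 2 were gained, against 38.8% of all regions. By 72 h the counts were 4 of 20 lost and 3 of 19 gained, against 49.2% of all regions in both cases. Setd7, a lysine monomethyltransferase gene, had 6, 4 and 6 regions: its 2 regions without a 48 h peak measured 316 and 480 bp in naive cells and 279 and 116 bp at 72 h. Setd3 had 4, 3 and 5, Setd4 5, 3 and 3, Setd5 2, 1 and 3, and Setd6 3, 1 and 2. A naive-only region of 432 bp counted to Setd4 lay over the promoter window of its neighbour Cbr1.

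Kdm1a, which encodes the H3K4 demethylase LSD1, was the demethylase gene with the most regions gained without loss by 72 h. It had 1 region in naive cells, its promoter, and 4 at 48 h and 4 at 72 h. The new regions lay 4.07, 32.1 and 32.5 kb into the gene, and the last of these (chr4:136569960-136570388) had scores of 119 and 244, above 92.4% of the 72 h peaks. Its paralog Kdm1b had 2, 1 and 2 regions, with a new region inside the gene at 72 h only (chr13:47063195-47063432, score 154) and a naive-only region of 273 bp.

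Kdm5a, Kdm5b and Kdm5c, H3K4 demethylase genes of the KDM5 family, had fewer regions in the Th17 lists. Together with Kdm1a and Kdm1b, the H3K4 demethylase genes lost 37.5% of their naive regions by 48 h, against 55.9% of all regions. By 72 h they had lost 43.8%, against 49.2% of all regions. Kdm5b had 6, 3 and 3 regions, Kdm5a 4, 3 and 3 and Kdm5c 3, 2 and 2. All of the Kdm5b regions were shared with neighbours, mostly Mgat4e. The naive-only region of Kdm5c, 393 bp wide (chrX:152234058-152234450), lay 1.03 kb inside the gene.

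Of the demethylase genes of the KDM3, KDM4 and KDM7 families, Kdm4b and Kdm3b had fewer regions at each step. Kdm4b had 6 regions in naive cells, 3 at 48 h and 2 at 72 h. The region at its lower gene end, shared with Uhrf1, kept its width (653, 687 and 694 bp) and scored 270 at 48 h and 436 at 72 h, above 99.0% and 99.7% of the peaks. Kdm3b had 7, 4 and 3 regions, with naive-only regions of 100, 205 and 422 bp. Kdm3a had 1, 4 and 2: of the 3 regions it gained by 48 h, all with scores of 49 or less, 1 was present at 72 h.

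Kdm7a had 3, 4 and 4 regions, and both of its gained regions lay inside the gene. The region chr6:39165737-39166125, 40.8 kb from the start, scored 206 and 210, and chr6:39181815-39182203 scored 158 and 72. Kdm4a and Kdm4d each had 3, 2 and 3 regions, and Kdm4c, with a gene body of 163368 bp, had its promoter region and no other.

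Kdm2b, an H3K36 demethylase gene whose product also recruits a Polycomb complex to CpG islands, had 12 regions in naive cells, 11 at 48 h and 12 at 72 h, with 4 gained and 4 lost by 72 h. Its highest-scoring gained region (chr5:122894754-122895235) lay 5.36 kb from the nearest start, with scores of 133 and 169. Its widest naive-only region measured 443 bp (chr5:122990490-122990932), and no other protein-coding gene lay within 10 kb of any of its 17 regions. Kdm2a, its paralog, had 6, 4 and 5, and Kdm8 2, 1 and 2.

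The direction at some of these loci depends on which peaks and distances are counted. Under 10 other settings, the sign of gained minus lost held throughout for 13 of the 50 balances above or below 0 of members described one by one, among them Ezh2, Kdm1a, Kdm6a, Nsd3 and Kdm4b between naive cells and 72 h. It turned in at least 1 setting for Kmt2a, Kmt2b, Kmt2c, Kmt2d, Nsd1, Nsd3, Dot1l, Setdb1, Setd3, Kdm3b and Kdm7a, for Nsd3, Dot1l, Setd3 and Kdm3b only between 48 h and 72 h. With peaks at or above the median width, gains and losses were equal at Ezh1 by 72 h and at Ezh2 and Kdm3a by 48 h, and with 48 h and 72 h peaks at or above the median score they were equal at Dot1l by 72 h. With 48 h and 72 h peaks limited to scores at or above the list's median, the members' loss by 48 h was 62.7% (72.4% of all regions) and their gain by 72 h was 17.4% (35.7% of all regions).

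The 13 member regions seen at 48 h only had a median score of 49, against 44 for all such regions and 69 for all 48 h peaks. The 5 with the highest 48 h score were at Setd3 (91), Kmt2e (77), Setdb2 (53), Kmt5c (51) and Kmt5b (50), and the highest of these was above 64.7% of the 48 h peaks. Of the 10 new regions with the highest 72 h score, 8 also had a peak at 48 h, and those at Kmt2c and Kdm1b did not.

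Partner genes of these enzymes, taken from a list that the rule for members does not cover, were read in the same way. Of 43 listed, 42 had a region. By 48 h, 11 gained more regions than they lost (19.5% of all genes did) and 19 lost more (49.1%), and by 72 h 15 gained more (33.9%) and 17 lost more (36.6%). Of the Polycomb partners of EZH2, Eed had 1, 2 and 3 regions in naive, 48 h and 72 h cells, Phf19 3, 5 and 5, Suz12 2, 2 and 1, and Jarid2, an accessory subunit, 13, 7 and 9. Hdac2, a deacetylase gene of the CoREST complex that holds LSD1, had 1, 4 and 4, and Hdac1 3, 4 and 4. The scaffold gene Rcor1 had 5, 7 and 6 and its relative Rcor3 9, 7 and 8. Of the demethylase genes on the same list, Phf2 had 7, 4 and 6, Phf8 1, 1 and 1 and Uty 0, 0 and 0.

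Of the 6 DOT1L partners, Aff1 had 22, 9 and 13 regions and Mllt3 20, 9 and 13. Mllt10 had 8, 9 and 11, Mllt6 6, 4 and 4, Mllt1 5, 2 and 3 and Aff4 3, 4 and 2. The 12 COMPASS and MLL partners lost 11 of 36 naive regions by 72 h (30.6%) and gained 5 of the 30 at 72 h (16.7%). Over all regions the loss and the gain were 49.2% each. Wdr5 had 2, 2 and 2 regions and Men1 4, 3 and 3. Smyd3, a further methyltransferase gene, had 9, 4 and 13.

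Other chromatin genes served as a comparison. The 29 chromatin remodeler genes, with 256 regions, lost 40.6% (33.5 to 48.1%) of their naive regions by 72 h and gained 35.1% (28.0 to 42.7%) of their 72 h regions, and the members' 36.1% and 29.9% lie inside those intervals. The members' loss by 48 h was 41.0% (33.8 to 48.5%) against 49.2% (41.8 to 56.6%), and these intervals overlap. Regions in all 3 lists were 40.7% (34.5 to 47.1%) against 33.2% (27.5 to 39.3%), which also overlap. The intervals did not overlap for gain from 48 h to 72 h, at 21.6% (15.6 to 28.6%) against 36.8% (29.6 to 44.5%). The members lay inside the remodeler interval for gain by 48 h (28.9% against 25.2%) and loss from 48 h to 72 h (13.8% against 15.0%). The 6 TET and DNMT genes of DNA methylation, with 69 regions, lost 56% (41.3 to 70%) and gained 46.3% (30.7 to 62.6%).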

How the data were processed

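ATAC-seq peak lists of naive CD4 T cells and of Th17 cultures at 48 h and 72 h were analysed, 1 per condition, although each condition has 2 libraries. Per the submitters' processing notes, the tools were MACS2 2.2.6, Bowtie2 2.3.4.1, deepTools and SAMtools 1.9, with GRCm38/mm10. Not given in the sources used here: thresholds, duplicate handling, the Tn5 shift and whether a list pools libraries. The deposited 48 h and 72 h lists hold a whole-number score per peak, the authors' own value, whose scale is not stated. The naive list holds none, and 1 line of it without values was left out. The lists hold no reads or signal, so depth is unknown and no count test or p-value was possible.

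Peaks sharing at least 1 bp were merged into regions, and regions were counted to every gene they overlapped after extending its body by 10 kb both ways. Where a list had more than 1 peak in a region, their widths were added up. Starts were read as 0-based and are printed 1-based. Promoter windows and their strand came from RefSeq (GRCm38.p6). Every coordinate is on GRCm38/mm10. A region is at a gene end when its middle is within 1 kb of one. Distances to a gene end for members without a promoter window run from the region's nearer edge instead. Scripts used Python 3.11.15, pandas 2.3.3, NumPy 2.4.6, SciPy 1.17.1 and Matplotlib 3.10.9, and the merging and counting were tested on simulated peaks.

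Members, roles, partner genes, remodeler and DNA methylation genes, cell markers, motifs and rules were chosen with earlier results of these data known. The members described one by one are up to 6 with the largest positive and up to 6 with the largest negative difference of gained and lost regions in each pair of conditions, those without a region, and Ezh2, Kdm6b, Kmt2a, Kmt2d, Dot1l, Setdb1, Setd2, Nsd1 and Kdm6a; the others are given by their counts. Single regions are the 10 new ones with the highest 72 h score, the 10 widest naive-only ones, the 5 with the highest score at 48 h only, and those over promoter windows. Further regions of the members described are named to complete a locus and were chosen after their values were seen. Sequences are windows that differ between lists and windows under wide regions; Ezh1 and Ezh2 were added as a pair. The 7 T cell markers had 46, 27 and 38 regions in naive, 48 h and 72 h cells. Some further markers are not reported here.

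Alternatives were the overlap or gap that joins peaks, the flank, the nearest gene body, peak width, peak number, peak score, leaving out gene ends, and leaving out each member; regions at members only was added after seeing the data.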

Additional observations from a re-analysis of the deposited data

How the results depend on the processing

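The 7 shares and the width difference were recomputed under 10 other settings and with each member left out in turn. Of the 96 recomputed values compared, 79 lay within the interval of the main value and 17 lay outside it. The 96 include the lowest and highest value of each result with a member left out, and all of these lay within it. With peaks at or above each list's median width, the loss of naive regions by 72 h was 25.0% (all regions 42.8%) and that of 48 h regions by 72 h 8.14% (13.2%). Keeping each list's 40624 widest peaks, the loss by 48 h was 30% (all regions 47.2%) and that from 48 h to 72 h 21.7% (25.0%). With 48 h and 72 h peaks at or above the median score, loss by 48 h was 62.7% (72.4%) and by 72 h 51.4% (67.2%), gain was 17.9% (27.3%), 17.4% (35.7%) and, from 48 h to 72 h, 33.0% (36.4%), and 29.8% (20.6%) of regions were in all 3 lists. With regions near gene ends left out, loss was 56.1% (66.6%) by 48 h and 48.2% (59.1%) by 72 h, gain was 42.5% (50.4%), 43.3% (59.4%) and 31.7% (46.6%), and 25.6% (17.0%) were in all 3 lists. Counting regions at members only, an alternative chosen after seeing the data, the gain from 48 h to 72 h was 28.7%. Causes of these shifts, beyond the peaks or regions each setting takes out, were not tested. Leaving out each member in turn gave 39.4 to 41.9% for loss by 48 h, 34.8 to 37.3% for loss by 72 h, 28.4 to 31.1% for gain by 72 h and 39.7 to 41.6% for regions in all 3 lists.

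For single members, 20 of 530 recomputed balances of gained minus lost regions turned sign and a further 76 moved to or from 0. Ezh1 by 72 h and Ezh2 by 48 h came to 0 at the median width, Dot1l by 72 h at the median score, and Kdm3a by 48 h at both. The turned ones follow. At the median width these were Kmt2d (1 by 48 h and 1 by 72 h), Setdb1 (1 by 72 h), Nsd1 (-2 by 48 h, 3 from 48 h to 72 h), and Nsd3 and Kdm3b (1 and 1 from 48 h to 72 h). With the widest peaks in equal numbers they were Kmt2c (1 by 48 h), and Dot1l (-1), Kmt2a (-2) and Setd3 (-1) from 48 h to 72 h. At the median score they were Kmt2a (-1 by 48 h and -1 by 72 h), Kmt2b (-2 by 48 h), Nsd1 (-2 by 48 h, 2 from 48 h to 72 h), and Nsd3 and Kdm3b (1 and 1 from 48 h to 72 h). Kdm3b was also at 2 from 48 h to 72 h with flanks of 50 kb, and Kdm7a at -1 by 72 h with the nearest gene body.

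No paired analysis was possible because each condition has 1 list with no value per replicate, and leaving out replicates was not run for the same reason. The lists bound what can be said: depth is unknown, and a missing peak does not show closed chromatin.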
